A study of Mus musculus with 4 samples.

Results

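The 9 genes described here encode receptors, or receptor partners, for neuropeptides and noradrenaline: Ramp1, Ramp3, Calcrl, Adrb1, Vipr1, Vipr2, Nmur1, Tacr1 and Oprd1. They were chosen by name from the deposited gene tables, and they are 9 of the 46031 genes in those tables. Each matched a single row that carried no other gene name. They were measured in γδ T cells, lymphocytes with a γδ antigen receptor, which had been isolated by cell sorting out of epididymal adipose tissue. The donors were male C57Bl/6 PLZFGFP mice aged 16 to 22 weeks. PLZF is a transcription factor encoded by Zbtb16, and PLZFGFP is a GFP reporter of it, carried by the mice of both subsets. PLZF+ cells gave 2 libraries (table columns A7 and B7) and PLZF- cells gave 2 (A6 and B6). Every library pooled the cells of 10 mice, for which the labels name no treatment. No label says whether a PLZF+ and a PLZF- library shared mice, or which antibodies and gates were used.

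Fat is supplied by sympathetic nerves, which release noradrenaline, and by sensory nerves, which release peptides such as calcitonin gene-related peptide (CGRP). CALCRL is a G protein-coupled receptor that works only with a receptor activity-modifying protein (RAMP): with RAMP1 it binds CGRP, and with RAMP2 or RAMP3 it binds adrenomedullin. Receptors coupled to stimulatory G proteins, such as those for CGRP, vasoactive intestinal peptide (VIP) and β-adrenergic agonists, raise cyclic AMP. The neuromedin U receptor NMUR1 is known for its role on group 2 innate lymphoid cells.

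The libraries differed in more than the reporter. Without the rRNA precursor Rn45s, the estimated depth was 1837511 and 2035066 reads in PLZF+ pools, against 744570 and 981882 reads in PLZF- pools, so low genes were measured less precisely in PLZF- cells. Zbtb16 had 2899 and 2921 normalized counts in PLZF+ pools, against 310.4 and 699 in PLZF- pools, in the order of the reporter sort. The CD3 genes of the T cell receptor complex, Cd3d, Cd3e and Cd3g, were present in all 4 libraries, with a summed level of 1802 and 1936 normalized counts in PLZF+ pools, against 552 and 977 in PLZF- pools. Genes on marker lists of other cell types were read as well. Lower in PLZF+ cells were 12 of 12 tested natural killer cell genes and 8 of 10 tested genes of group 2 innate lymphoid cells. So were 4 of 6 tested plasmacytoid dendritic cell genes, where 5.00% of all tested genes were lower. The natural killer list summed to 307 normalized counts in both PLZF+ libraries and to 4881 and 4295 in PLZF- pools. The innate lymphoid list summed to 1004 and 754 in PLZF+ against 5328 and 4282 in PLZF- pools, and the plasmacytoid list to 120.2 and 91.5 in PLZF+ against 896 and 535 in PLZF- pools. Of 8 tested dendritic cell and macrophage genes 3 were lower (list sum 184.6 and 52.4 in PLZF+ against 1515 and 689 in PLZF- pools), as were 1 of 3 αβ T cell genes (92.3 and 22.3 in PLZF+ against 324 and 451 in PLZF- pools). The αβ T cell gene was Cd28 (38.4 and 6.14 in PLZF+ against 251.4 and 354.9 in PLZF- pools), most of the PLZF- sum, while Cd5 and Cd6 did not pass. Of 10 genes on that list 7 were measured, and the αβ receptor genes Trac, Trbc1 and Trbc2 were not among them. Also lower was 1 of 5 mast cell and granulocyte genes (334 and 49.7 in PLZF+ against 1063 and 557 in PLZF- pools), a list for which A7 stood well above B7. The gene called was Kit, while Cpa3, Mcpt4, Tpsb2 and Cma1 did not pass. In bulk samples of this kind, fewer cells of a type and less RNA per cell cannot be told apart. Nor can other cells in a pool be told apart from sorted γδ T cells that express the listed genes.

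**Figure D1:**
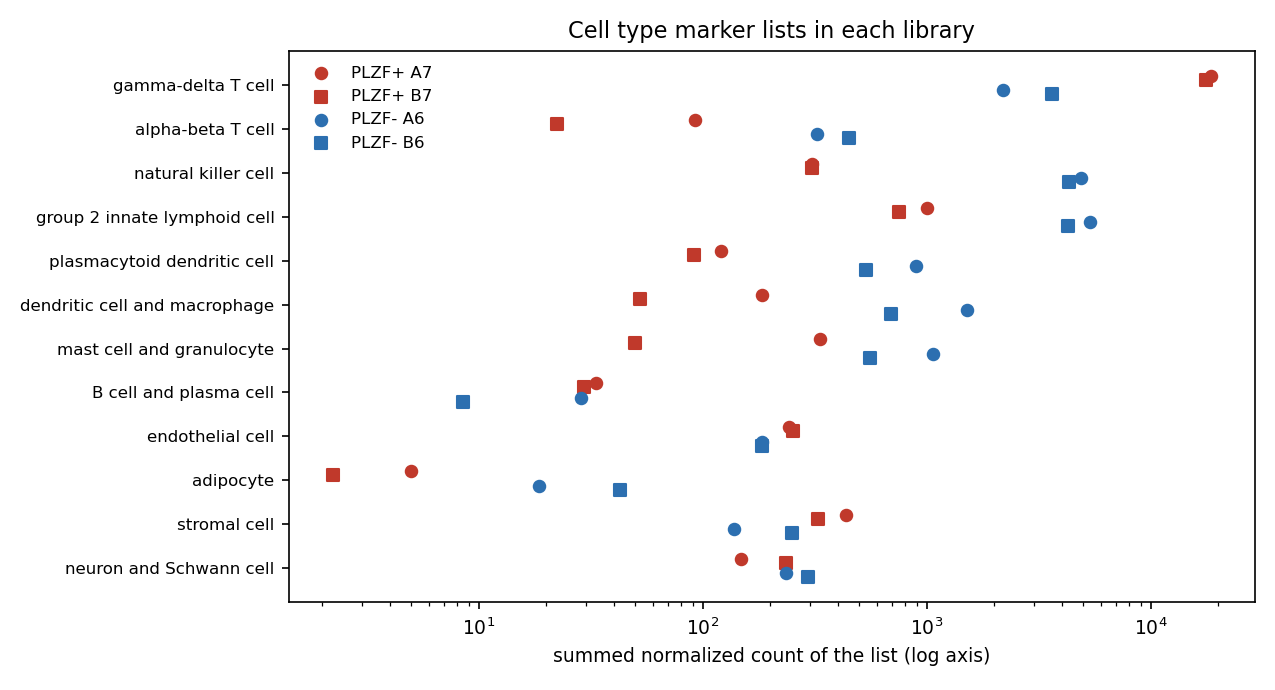
Summed normalized count (log axis) of each list of cell type markers, 1 point per library, red for PLZF+ and blue for PLZF-, circles for columns A and squares for columns B. The natural killer list summed to 307 in both PLZF+ libraries and to 4881 and 4295 in PLZF- pools, while the γδ T cell list was higher in PLZF+ pools.

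Differences between subsets were tested for the 9246 genes with a mean of at least 10 normalized counts, with limma on log2(normalized count + 1), and a gene was called at a Benjamini-Hochberg adjusted p under 0.05. Fold changes are PLZF+ over PLZF- on that log2 scale, where added pseudocounts shrink the changes of low genes. Of the 9 receptor genes, 4 reached the minimum (Ramp1, Ramp3, Calcrl and Vipr1), 3 lay under it (Adrb1, Vipr2 and Nmur1), and 2 were listed at 0 in every library (Tacr1 and Oprd1). Over all tested genes 7.52% were called in either direction. Ramp1 and Ramp3 were called higher in PLZF+ cells, where 2.52% of all tested genes were, and none was called lower, where 5.00% of all tested genes were. In all 4 tested receptor genes both libraries of a subset lay beyond both of the other, as in 51.3% of all tested genes.

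**Figure D2:**
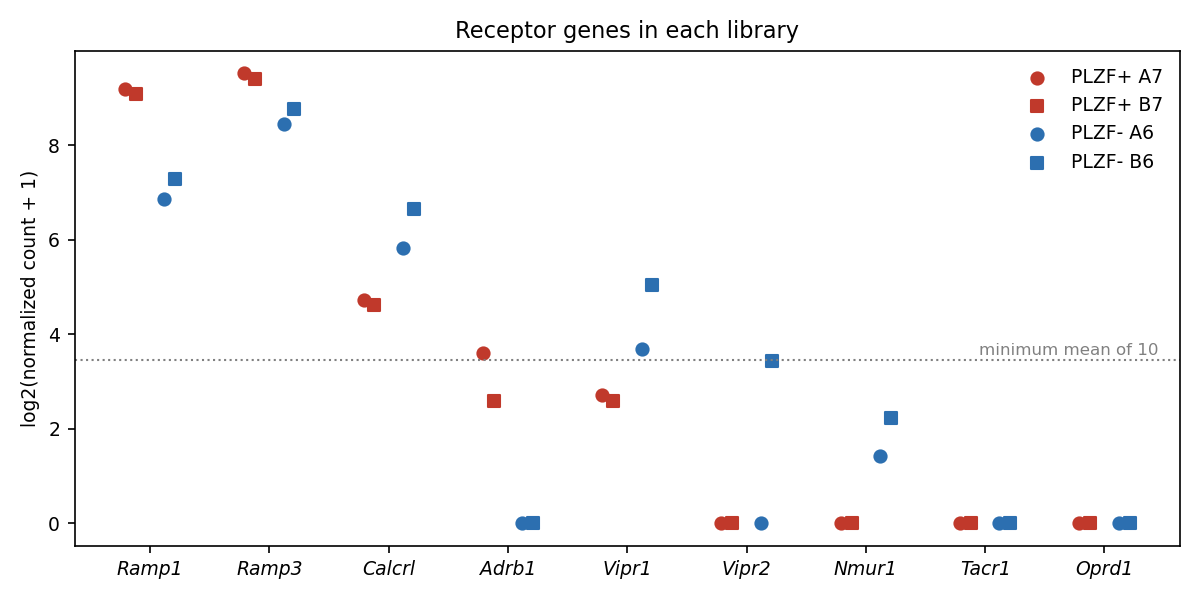
Level of each receptor gene as log2(normalized count + 1), 1 point per library, PLZF+ (red) left of PLZF- (blue), with the minimum mean of 10 as a dotted line. Ramp1 and Ramp3 lie higher in both PLZF+ libraries, Calcrl and Vipr1 lie lower there, and the other 5 genes are at or near 0 in at least 1 subset.

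As deposited (mm10, the assembly GRCm38), Ramp1 spans 91179822 to 91225196 on the plus strand of chromosome 1, Ramp3 spans 6650148 to 6677477 on the plus strand of chromosome 11, and Calcrl spans 84330627 to 84425266 on the minus strand of chromosome 2. The deposited Ramp3 locus begins before the annotated gene start at 6658521 (GENCODE M21). The 250 bases before the RefSeq start of these 3 genes (RefSeq, GRCm38.p6) are shown because their products form the same receptors while their transcripts differed in opposite directions, although the difference of Calcrl did not pass the test. Capitals mark the GC box (GGGCGG, either strand), and each sequence is read 5′ to 3′ on the strand of its gene.
Ramp1, chr1:91179572-91179821, plus strand: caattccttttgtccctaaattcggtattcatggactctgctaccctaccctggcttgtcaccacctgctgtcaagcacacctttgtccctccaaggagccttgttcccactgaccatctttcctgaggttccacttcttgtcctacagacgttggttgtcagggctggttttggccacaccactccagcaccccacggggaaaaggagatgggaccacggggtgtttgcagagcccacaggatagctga
Ramp3, chr11:6658283-6658532, plus strand: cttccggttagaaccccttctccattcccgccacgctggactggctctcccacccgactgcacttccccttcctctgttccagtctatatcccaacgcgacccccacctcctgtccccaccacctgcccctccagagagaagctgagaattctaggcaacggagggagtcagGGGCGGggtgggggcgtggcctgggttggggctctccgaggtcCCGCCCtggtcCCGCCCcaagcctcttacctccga
Calcrl, chr2:84425267-84425516, minus strand: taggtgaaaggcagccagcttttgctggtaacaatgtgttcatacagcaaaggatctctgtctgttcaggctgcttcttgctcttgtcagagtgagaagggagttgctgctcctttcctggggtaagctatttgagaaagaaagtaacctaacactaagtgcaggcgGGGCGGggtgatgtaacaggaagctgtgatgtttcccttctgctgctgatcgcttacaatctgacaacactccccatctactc

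The GC box was found 3 times before Ramp3, 1 time before Calcrl and 0 times before Ramp1, and in 32.7% of 32851 promoters of the same length. The GC content was 54% for Ramp1, 65.2% for Ramp3 and 48.4% for Calcrl. No match in these 3 windows was found for the cyclic AMP response element TGACGTCA (1.55% of promoters), its shorter core TGACG (17.8%) or the ROR core AGGTCA (14.0%), each searched on both strands. Every full response element also holds its shorter core.

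Ramp1 was higher in PLZF+ cells. It had 585 and 542 normalized counts (944 and 971 reads) in PLZF+ pools (A7, B7), and 114.7 and 155 (68 and 127 reads) in PLZF- pools (A6, B6). Both PLZF+ libraries lay above both PLZF- libraries, and the means were 563 ± 30.3 in PLZF+ and 134.8 ± 28.4 in PLZF- cells (SD, n = 2 each), a ratio of 4.18. The log2 fold change was 2.07 ± 0.26 (SE), with an adjusted p of 0.00030 by limma. The call held when any library was left out (adjusted p 0.0087 to 0.035), and it was lost without limma's trend and robust fit (0.084). In the authors' deposited table of Cuffdiff results Ramp1 was significant (q = 0.00191), as were 5.73% of the loci tested there.

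Ramp3, the partner that turns CALCRL into an adrenomedullin receptor, was the most abundant of the 9 genes and was higher in PLZF+ cells by a smaller factor. It had 734 and 669.7 normalized counts in PLZF+ pools (A7, B7), and 347.5 and 432 in PLZF- pools (A6, B6). The subsets did not overlap, with means of 702 ± 45.5 in PLZF+ and 389.6 ± 59.5 in PLZF- pools (SD, n = 2 each) and a ratio of 1.80. This gave a log2 fold change of 0.85 ± 0.21 (SE) with an adjusted p of 0.029 by limma. The call was lost without A7 (adjusted p = 0.39), B7 (0.29) or A6 (0.14), without limma's trend and robust fit (0.34), on the FPKM table (0.073) and without a filter (0.054), and over all alternatives the adjusted p ran from 0.0014 to 0.39. In the authors' deposited table its q was 0.0535. The deposited locus of Ramp3 also spans the pseudogene Gm11978 on the opposite strand, whose own row was listed at 0 in every library.

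Set against the CD3 chains of the T cell receptor complex, the 2 genes went different ways. Cd3d, Cd3e and Cd3g were themselves called higher in PLZF+ cells (log2 fold change 1.08, 1.22 and 1.55, adjusted p 0.029, 0.027 and 0.0035, limma). Their summed level differed by 1.35 on the log2 scale, which this scale takes from the difference of every gene. Per 100 normalized counts of Cd3d, Cd3e and Cd3g together, Ramp1 had 32.4 and 28 in PLZF+ pools, against 20.8 and 15.9 in PLZF- pools, so it stayed higher. Ramp3 had 40.7 and 34.6 in PLZF+ pools, against 63 and 44.2 in PLZF- pools on that scale, so its direction turned (log2 difference -0.49, with no test). This scale was chosen after its values were seen, and the part of the summed marker levels given above in either difference was not tested.

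Calcrl, the receptor chain itself, was lower in both PLZF+ libraries and did not pass the test. It had 25.4 and 23.4 normalized counts (41 and 42 reads) in PLZF+ pools (A7, B7), and 55.7 and 98.8 (33 and 81 reads) in PLZF- pools (A6, B6). The means were 24.4 ± 1.38 in PLZF+ and 77.2 ± 30.5 in PLZF- cells (SD, n = 2 each), with a log2 fold change of -1.57 ± 0.52 (SE, adjusted p = 0.10, limma). With the letter of the column code as a term in the fit the adjusted p was 0.042, and over all alternatives it ran from 0.042 to 0.44. Its q in the authors' deposited table was 0.137. Endothelium also carries CALCRL. Of 15 endothelial genes, Tek, Emcn, Esam, Tie1, Plvap and Lyve1 were listed at 0 in every library and 7 lay under the minimum. Of the 7, Cdh5, Kdr and Vwf were read only in PLZF- pools, Cdh5 with a single read, in B6. Kdr had 13.5 and 1.22 normalized counts there (A6, B6). Cldn5, Egfl7 (in a row shared with Mir126), Flt1 and Prox1 were read only in PLZF+ pools, Prox1 with 8 reads, in A7. Pecam1, which leukocytes also express, had 159.8 and 152.9 normalized counts in PLZF+ pools, against 99.5 and 114.6 in PLZF- pools (adjusted p = 0.37, limma). Their part in the level of Calcrl was not tested.

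Levels of different genes were compared per length, in FPKM. In PLZF+ pools (A7, B7), Ramp3 had 327 and 312 FPKM, Ramp1 149 and 140.0 FPKM, and Calcrl 3.17 and 2.90 FPKM. In PLZF- pools (A6, B6), Ramp3 had 145 and 193 FPKM, Ramp1 32.3 and 38.3 FPKM, and Calcrl 7.01 and 12.5 FPKM. Every library thus held the same order, Ramp3 over Ramp1 over Calcrl, with no overlap between neighbours in that order within a subset. By mean FPKM, Ramp3 ranked 180 among 14411 genes above 0 in PLZF+ cells and 335 among 13687 in PLZF- cells. Calcrl ranked 9271 in PLZF+ and 5927 in PLZF- cells.

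The ratios of the 3 transcripts within a library lay apart between the subsets. Ramp1 exceeded Calcrl 47.1 and 48.2 times in PLZF+ pools, against 4.6 and 3.05 times in PLZF- pools. For Ramp3 over Calcrl the ratios were 103 and 107 in PLZF+ pools, against 20.7 and 15.4 in PLZF- pools. Ramp3 exceeded Ramp1 2.19 and 2.22 times in PLZF+ pools, against 4.51 and 5.04 times in PLZF- pools, a log2 difference of -1.11 between subsets. None of the 3 ratios overlapped between subsets, and the exact two-sided permutation test gave p = 0.333 for each, the smallest that 2 libraries against 2 allow. For the ratios over Calcrl the lack of overlap follows from the levels above, with Ramp1 and Ramp3 higher and Calcrl lower in both PLZF+ libraries. How often the ratios of other gene pairs lie apart was not tested.

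**Figure D3:**
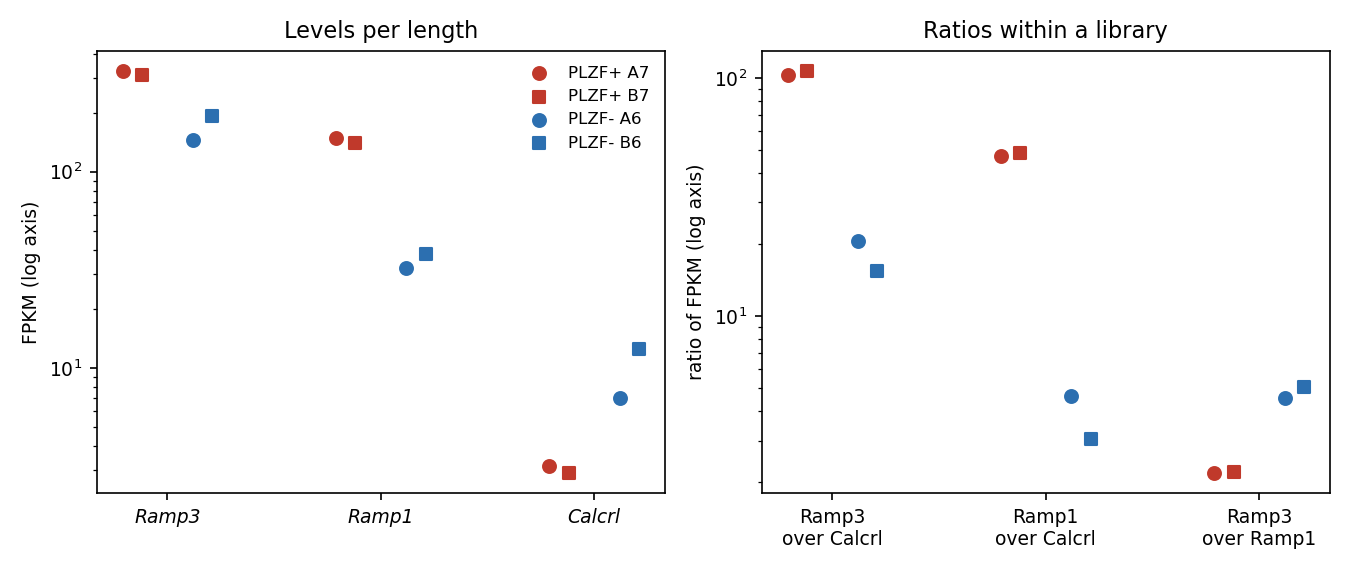
Left, FPKM (log axis) of Ramp3, Ramp1 and Calcrl in each library, PLZF+ in red and PLZF- in blue. Right, ratios of FPKM within a library (log axis): Ramp1 over Calcrl was 47.1 and 48.2 in PLZF+ pools, against 4.6 and 3.05 in PLZF- pools.

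The third RAMP gene, Ramp2, shares its deposited row with Vps25, so its value is not assigned to either. That row had 74.3 and 93.8 normalized counts in PLZF+ pools, against 70.8 and 62.2 in PLZF- pools, and did not pass (log2 fold change 0.33 ± 0.40, adjusted p = 0.70, limma). Calcr, the calcitonin receptor that also pairs with RAMPs, had 4.34 normalized counts in PLZF+ library A7 and 0 in the other 3 libraries. Crcp, a component of CGRP receptor signalling, had 48.9 and 22.3 normalized counts in PLZF+ pools, against 15.2 and 6.10 in PLZF- pools (log2 fold change 1.67 ± 0.77, adjusted p = 0.25, limma).

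Calca, which encodes calcitonin and CGRP through alternative splicing, was lower in PLZF+ cells. It had 118.9 and 82.6 normalized counts (192 and 148 reads) in PLZF+ pools (A7, B7), and 1264 and 516 (749 and 423 reads) in PLZF- pools (A6, B6). The subsets did not overlap, and limma gave a log2 fold change of -3.01 ± 0.37 (SE) at an adjusted p of 0.00031. The call held when any library was left out (adjusted p 0.0062 to 0.038) and was lost without the trend and robust fit (0.094). A gene-level table does not separate the calcitonin and CGRP transcripts. Calca is also on the list of group 2 innate lymphoid cell genes, and the summed levels and called genes of that list given above include Calca itself. Il1rl1, the IL-33 receptor gene on that list, had 21.1 and 1.12 normalized counts in PLZF+ pools, against 1230 and 805 in PLZF- pools. The part of such cells in the difference of Calca was not tested.

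Of the other 17 listed ligand and ligand-processing genes, the endothelin-converting enzyme gene Ece1 was the only one tested (76.2 and 79.2 normalized counts in PLZF+ pools, 65.8 and 61.0 in PLZF- pools, adjusted p = 0.74, limma). Adm, which encodes adrenomedullin, had 4.88 normalized counts in PLZF- library B6 and 0 elsewhere. Penk, the enkephalin precursor, had 12.2 in B6 and 0 elsewhere. Tac4 and Pomc had 0 to 1.24 normalized counts in every library. The remaining 12 of the list, among them Calcb, Vip, Nmu and the noradrenaline synthesis genes Th and Dbh, were listed at 0.

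Adrb1, the β1-adrenergic receptor gene (chromosome 19, 56722372 to 56724862 as deposited, mm10), was detected in PLZF+ cells and not in PLZF- cells. It had 11.1 and 5.02 normalized counts (18 and 9 reads) in PLZF+ pools (A7, B7), and 0 reads in PLZF- pools (A6, B6). Against a floor of 3 reads per PLZF- library, averaged over the subset (4.36 normalized counts), it was at least 1.85-fold higher in PLZF+ cells. The bound rests on A7: without it the value was 1.15, and the level in B7 lay under the floor of A6 alone (5.06). Adrb1 lay under the minimum, and in the fit without a filter its adjusted p was 0.22 (limma). The deposited locus spans 2491 bases, while the annotated gene (GENCODE M21) spans 10915 bases, and reads outside the deposited locus are not in its value.

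Adrb3, the β3-adrenergic receptor gene of fat cells, and the 6 α-adrenergic receptor genes were listed at 0 in every library. A count of 0 allows up to 1.86 and 1.67 normalized counts in PLZF+ pools (A7, B7) and up to 5.06 and 3.66 in PLZF- pools (A6, B6), at 3 reads per library and for counting error only.

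The VIP receptor genes were low. Vipr1 (chromosome 9, 121642716 to 121672954, mm10) had 5.57 and 5.02 normalized counts (9 and 9 reads) in PLZF+ pools (A7, B7), and 11.8 and 31.7 (7 and 26 reads) in PLZF- pools (A6, B6). Both PLZF- libraries were higher than the PLZF+ libraries but far apart from each other, and the gene did not pass (log2 fold change -1.70 ± 1.03 SE, adjusted p = 0.39, limma). Vipr2 had 8 reads (9.76 normalized counts) in PLZF- library B6 and 0 reads in the other 3 libraries. The mean of Vipr2 in PLZF- cells was 2.76 times the floor of 3 reads per PLZF+ library (1.77 normalized counts on average). That value rests on B6 alone, since A6 had 0 reads: it was 5.52 without A6 and 0 without B6. No lower bound of a fold is therefore given for Vipr2. The antisense gene Gm20658 lies within Vipr2, and without a stated strand setting their reads cannot be told apart. Adcyap1r1, the third receptor of this family, was listed at 0 in every library.

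Nmur1 had 0 reads in both PLZF+ libraries and 1 and 3 reads (1.69 and 3.66 normalized counts) in PLZF- pools (A6, B6), so both subsets were at or under the floor of 3 reads and no fold is given. Its deposited locus spans 1817 bases of an annotated 39926. Tacr1, the substance P receptor gene, and Oprd1, the δ-opioid receptor gene, had 0 reads in every library, within the limits that a count of 0 allows as given for the adrenergic genes. In PLZF- cells the mean levels per length of the low genes were 2.85 FPKM for Vipr1, 1.65 FPKM for Nmur1 and 1.53 FPKM for Vipr2, and the libraries of these 3 overlapped. In PLZF+ cells Adrb1 averaged 2.03 FPKM and Vipr1 0.632 FPKM. The authors' deposited table gives Adrb1, Vipr1, Vipr2, Nmur1, Tacr1 and Oprd1 as not tested.

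**Figure D4:**
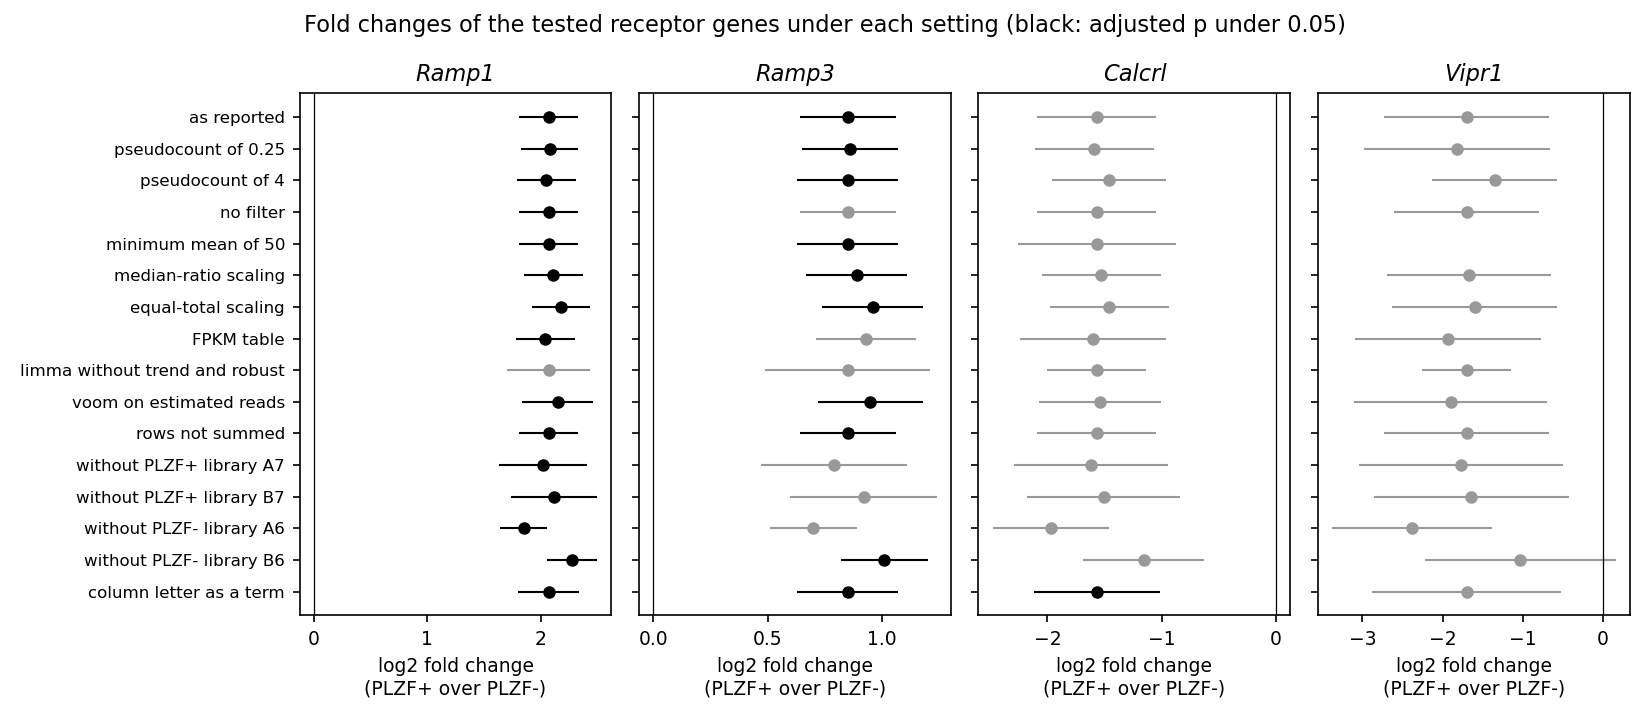
Log2 fold change (PLZF+ over PLZF-) of the 4 tested receptor genes under each processing setting, with the SE as a bar, black where the adjusted p is under 0.05 and grey elsewhere. Ramp1 is black in all settings but the fit without trend and robust, Ramp3 is grey in 6, Calcrl is black only with the column letter as a term, and Vipr1 is grey throughout.

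The signalling genes downstream of these receptors were read from lists of G proteins, cyclic AMP enzymes and receptor regulators. Over 11 lists of related receptors, ligands and signalling genes, 203 genes were measured and 68 tested, of which 2 were higher in PLZF+ cells, 9 were lower and 57 did not pass, where 2.52% of all tested genes were higher and 5.00% lower. These lists were chosen with earlier results of these data known.

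Arrb1, which encodes β-arrestin 1, a protein that ends receptor signalling and drives receptor uptake, was higher in PLZF+ cells. It had 393 and 343 normalized counts in PLZF+ pools (A7, B7), and 101.2 and 103.7 in PLZF- pools (A6, B6), with no overlap. By limma its log2 fold change was 1.83 ± 0.27 (SE) at an adjusted p of 0.0012, and the call was lost without A7 (0.069) or B7 (0.054). Of the other 4 tested receptor kinases and arrestins none passed, among them Adrbk1, the β-adrenergic receptor kinase (115.2 and 109.4 normalized counts in PLZF+ against 163.6 and 170.7 in PLZF- pools, adjusted p = 0.33). Adrbk2, a second kinase of that type, had 85.5 and 102.7 normalized counts in PLZF+ pools, against 6.75 and 43.9 in PLZF- pools (log2 fold change 2.34 ± 0.72, adjusted p = 0.074, limma). The median log2 fold change of the 5 tested genes of this list was 1.21, where that of all tested genes was -0.03 and 2.52% of them were called higher.

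Of 10 tested phosphodiesterase genes, whose products degrade cyclic nucleotides, 3 were lower in PLZF+ cells and none was higher, where 5.00% of all tested genes were lower and 2.52% higher. Pde2a had 8.05 and 5.02 normalized counts in PLZF+ pools, against 332 and 246.4 in PLZF- pools (log2 fold change -5.28 ± 0.50, adjusted p = 4.3e-05, limma). Its call held when any library was left out (adjusted p 0.0013 to 0.022). Pde4d and Pde7a, both specific for cyclic AMP, fell by 1.91 and 1.21 on the log2 scale (adjusted p = 0.013 and 0.025, limma). Leaving out any 1 library ended the call of Pde4d (0.068 to 0.15), and Pde7a lost it without A7, B7 or A6 (0.17 to 0.38). Pde4b, another enzyme specific for cyclic AMP, had 336 and 448 normalized counts in PLZF+ pools, against 528 and 422 in PLZF- pools (adjusted p = 0.55). The list had a median log2 fold change of -1.56, and all tested genes one of -0.03.

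Genes of the G proteins, adenylyl cyclases and protein kinase A mostly did not pass. Over all tested genes 2.52% were called higher and 5.00% lower in PLZF+ cells. Gnas, the stimulatory α subunit, had 217 and 209.8 normalized counts in PLZF+ pools, against 233 and 243.9 in PLZF- pools (log2 fold change -0.16 ± 0.26, adjusted p = 0.78, limma). Of 16 tested G protein subunits 1 was higher, Gnb1, a β subunit (500.4 and 461.5 normalized counts in PLZF+ against 180.5 and 296.4 in PLZF- pools, adjusted p = 0.032, limma). Gnb1 lost its call without A7, B7 or A6 (0.17 to 0.38). Adcy7, the most abundant adenylyl cyclase gene, had 478 and 404 normalized counts in PLZF+ pools, against 533 and 419.5 in PLZF- pools (adjusted p = 0.84). Of 8 tested genes of protein kinase A and its anchors, Akap12, a scaffold, was lower (1.86 and 10.6 normalized counts in PLZF+ against 59.0 and 74.4 in PLZF- pools, log2 fold change -3.55 ± 0.81, adjusted p = 0.017), and lost its call without A7, A6 or B6 (0.14 to 0.17). None of the 9 tested CREB family factors and coactivators passed, including Crem, a cyclic AMP responsive factor (2220.0 and 1806 normalized counts in PLZF+ against 3006 and 2348 in PLZF- pools, adjusted p = 0.21).

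In the phospholipase C and diacylglycerol arm, which receptors such as NMUR1 and TACR1 use, 4 of 12 tested genes were lower in PLZF+ cells and none was higher, where 5.00% of all tested genes were lower and 2.52% higher. The list had a median log2 fold change of -0.60, against -0.03 for all tested genes. The 4 were the protein kinase C genes Prkcb (log2 fold change -2.62 ± 0.36, adjusted p = 0.00063, limma), Prkch (-5.71 ± 0.84, adjusted p = 0.0010) and Prkcq (-1.68 ± 0.28, adjusted p = 0.0029), and the calcium channel gene Itpr2 (-1.22 ± 0.26, adjusted p = 0.011). The call of Prkch was lost without A6 (0.12), that of Prkcq without A7, B7 or A6 (0.057 to 0.076), and that of Itpr2 without any of the 4 libraries (0.054 to 0.29). Without limma's trend and robust fit every called gene of these lists but Pde2a and Prkch lost its call (0.062 to 0.31). On the FPKM table Arrb1, Gnb1, Akap12, Pde4d, Pde7a and Itpr2 lost theirs (0.056 to 0.18), without a filter Gnb1 (0.066) and Pde7a (0.054) did, and with voom Prkch did (0.05). Protein kinase C genes act in antigen receptor signalling as well as below these receptors.

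**Figure D5:**
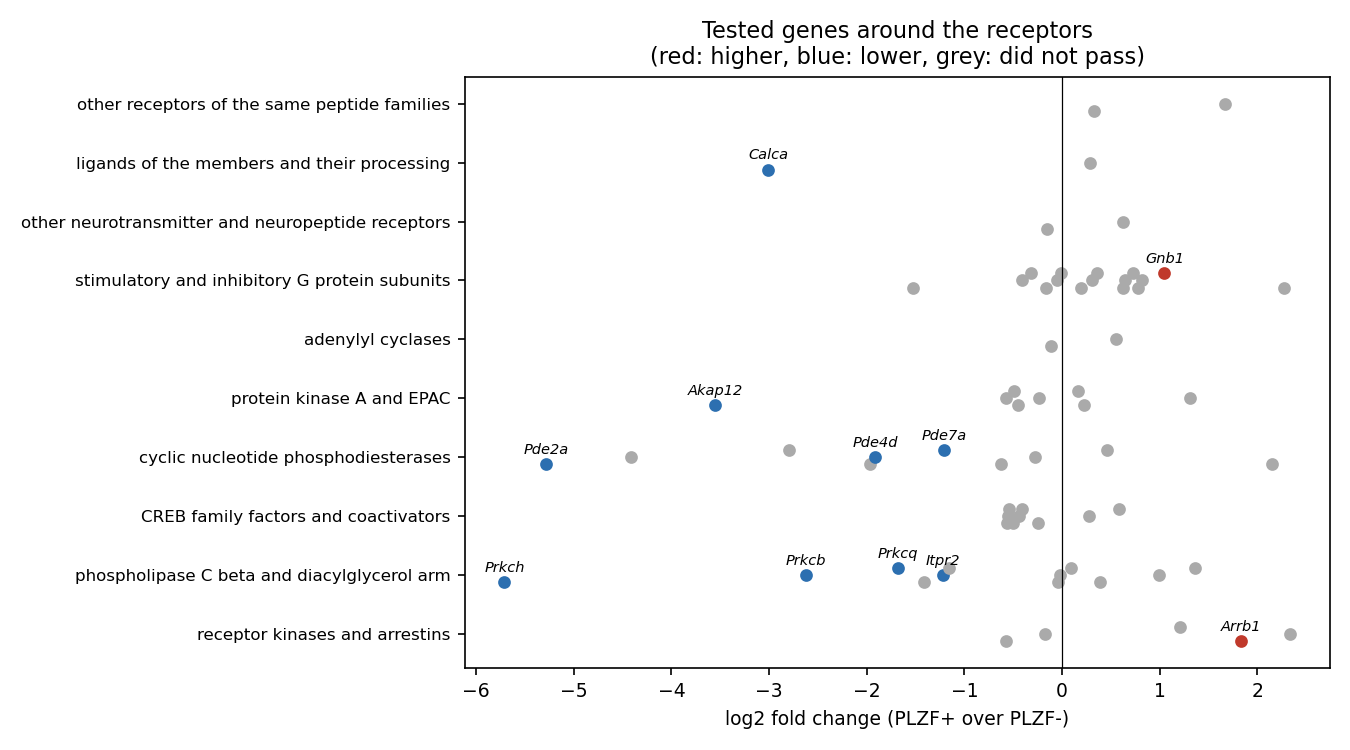
Log2 fold change (PLZF+ over PLZF-) of each tested gene in the lists of related receptors, ligands and signalling genes, 1 point per gene, red where higher, blue where lower and grey where the test did not pass. The 2 genes called higher are Gnb1 and Arrb1, and the 9 called lower reach from -1.21 (Pde7a) to -5.71 (Prkch).

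The genes whose pattern over the 4 libraries was most like that of Ramp1, by the root mean square distance between centred log2 values among 1454 tested genes of similar level, were Rbpms2 (distance 0.062) and S100a4 (0.091). Rbpms2, an RNA-binding protein gene, had 347 and 302.5 normalized counts in PLZF+ pools, against 62.4 and 93.9 in PLZF- pools. For Ramp3, among 658 tested genes, they were Fxyd5 (0.017) and Rps25 (0.027), the first encoding a regulator of the sodium pump and the other a ribosomal protein. Fxyd5 had 515 and 463.7 normalized counts in PLZF+ pools, against 248 and 306 in PLZF- pools. By limma the adjusted p was 0.0014 for Rbpms2 and 7e-05 for S100a4. For the neighbours of Ramp3 it was 0.05 as rounded (Fxyd5, log2 fold change 0.82) and 0.061 (Rps25, 0.86), so Rps25 did not pass. These distances rest on 4 libraries, in which 51.3% of tested genes kept the subsets apart.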

How the data were processed

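Gene expression was measured by SMART-seq2 in 4 libraries, 2 of PLZF+ and 2 of PLZF- γδ T cells. The submitters' processing notes name the build mm10 and the tools HISAT 0.1.6, SAMtools 1.2, Cufflinks 1.2 and Cuffdiff, without an annotation or strand setting. Among the values deposited by the authors are Cuffnorm normalized counts (a signal: estimated reads over a factor for the library). FPKM from Cuffnorm and p-values with q-values from Cuffdiff were deposited too.

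Overlapping rows of 1 name were summed, and Rn45s, listed at 0 in B7, was left out. A listed gene with several rows was read from the highest. The value of 1 read was taken from the steps of low values (0.619 and 0.558 normalized counts in A7 and B7, 1.69 and 1.22 in A6 and B6), and 93.2% to 94.8% of low values lay within 0.05 of a whole read. Subsets were compared with limma 3.58.1 (R 4.3.3, trend, robust, two-sided) on log2(normalized count + 1) for genes with a mean of at least 10. Alternatives tried were no filter, a minimum of 50, a pseudocount of 0.25 or 4, 2 other scalings, FPKM + 0.1, no trend or robust fit, voom, rows not summed, each library left out, and the column letter as a term. On data simulated for this comparison (9246 genes) 42% of 2-fold and 98% of 4-fold changes were called, with 9 unchanged genes. Every simulated gene had the same dispersion (0.022), a median over abundant genes. These shares therefore do not give the power for low or more variable genes such as Calcrl and Vipr1. Since libraries are pools of mice, p-values measure the spread between pools. With 2 libraries per subset, limma takes that spread in part from the other tested genes. The members and lists were chosen with earlier results of these data known. The text names all members, called genes of the pathway lists (up to 3 per list by p), 6 related genes, marker genes and, for each called member, the 2 genes of most similar pattern. Other list genes named, Itpr2 and the uncalled ones among them, were chosen after their values were seen. A result on 1 further gene of the rule is not reported here.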

Additional observations from a re-analysis of the deposited data

How the results depend on the processing

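All alternatives but one were set with the design; the scale relative to Cd3d, Cd3e and Cd3g was chosen after seeing the data. Over all genes 233 were called higher and 462 lower in PLZF+ cells. On the FPKM table the counts were 110 and 244, without the trend and robust fit 29 and 184, and with the column letter as a term 423 and 690; leaving out a library gave 20 to 253 higher and 108 to 265 lower. Ramp1 kept its call under 14 of 15 tested alternatives (log2 fold change 1.85 to 2.28 with a library left out) and lost it without the trend and robust fit (2.07). Ramp3 kept its call under 9 and lost it under 6: 0.85 without a filter and without the trend and robust fit, 0.93 on the FPKM table, and 0.70 to 1.01 with a library left out, where the call held only without B6. Calcrl passed with the column letter as a term (-1.57), and otherwise, as Vipr1 under all 14, did not pass. Relative to the Cd3 genes the log2 differences, with no test, were 0.73 (Ramp1), -0.49 (Ramp3, reversed), -2.95 (Calcrl) and -3.22 (Vipr1). The cause was not tested. No value exists for Vipr1 at a minimum mean of 50. No paired analysis was possible because the columns carry no replicate number; the fit with the column letter as a term blocks libraries on a letter that no label explains. Depth limits the genes at few or 0 reads (Adrb1, Vipr2, Nmur1, Tacr1 and Oprd1), and the value of 1 read is larger in the shallower PLZF- libraries.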

Other observations

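Of 70 other measured neurotransmitter and neuropeptide receptor genes, 56 were listed at 0 in every library, 12 lay under the minimum mean and 2 were tested, neither of which passed. Gabbr1, which encodes a GABA receptor subunit, had 121.4 and 91.5 normalized counts in PLZF+ pools, against 79.3 and 58.5 in PLZF- pools (adjusted p = 0.41, limma). Hrh2, a histamine receptor gene, had 20.4 and 15.6 normalized counts in PLZF+ pools, against 32.0 and 12.2 in PLZF- pools (adjusted p = 0.94, limma). Some low genes were read in a single library: the serotonin receptor gene Htr1b had 18.3 normalized counts in PLZF- library B6 and 0 in the other 3. These examples were chosen after their values were seen.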
